A study of Mus musculus with 71 samples.

Results

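This account describes 1 comparison of a study of sleep loss in mouse brain: DBA/2J males kept awake for the 6 h that follow light onset, against DBA/2J males left undisturbed in their home cages until the same hour. It rests on the 6 arrays, of 71 in the study, that the labels assign to DBA/2J at ZT6, 3 sleep-deprived and 3 control, and covers all 45037 probe sets that are not array controls. ZT, or zeitgeber time, counts hours from light onset, and ZT6 is the middle of the light period. The mice were 12 to 13 weeks old and had food and water freely available. Each array holds whole-brain RNA pooled in equal amounts from 3 mice, so 9 mice stand behind each group mean and n is 3 pools. DBA/2J is an inbred strain without engineered alleles. The other groups drawn on below are DBA/2J controls and sleep-deprived mice killed at ZT0, ZT12 and ZT18, each deprived over the preceding 6 h, and the AKR/J and C57BL/6J groups at ZT6, all males of the same age and with 3 arrays each. The labels do not say whether pools of a group were extracted or hybridised apart in time.

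Mice are nocturnal and sleep mostly in the light, so deprivation from ZT0 to ZT6 removes sleep when the drive to sleep is highest. Waking neurons switch on immediate early genes, transcription factors and synaptic regulators induced within minutes of activity. Long waking is also known to engage chaperones: cytosolic heat shock proteins, which refold damaged proteins, and the endoplasmic reticulum chaperones of the unfolded protein response. Handling and wakefulness raise circulating corticosterone, which acts through the glucocorticoid receptor on its own targets. The clock genes Per1 and Per2 and the output gene Dbp cycle with time of day and are also known to respond to sleep loss.

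Values are log2 expression, in which a difference of 1 is a doubling, and levels of different probe sets are not set against each other. The defining markers of the tissue were present in the controls, where Snap25, a neuronal vesicle protein, averaged 13.42, Mbp of myelin 13.77 and Slc1a2 of astrocytes 12.32. The array medians of the series ran from 5.65 to 5.71 and the lowest correlation between any 2 arrays was 0.986. Some features of the 6 arrays, noticed after the values were seen, bear on what follows. Sleep-deprived replicate 3 averaged 6.63 over 7 pituitary hormone genes, against 8.27 to 8.54 on the other 5 arrays, and 6.08 over 6 skeletal muscle genes against 4.84 to 4.96. Control replicate 3 averaged 6.92 over 6 genes that include Psapl1, Elovl3 and Aadac, against 4.12 to 4.15 elsewhere. The signal at the 3' end of actin exceeded that at its 5' end, a measure of RNA integrity and labelling. The excess was 0.61, 0.64 and 0.72 in the controls and 0.71, 0.88 and 0.77 in the sleep-deprived pools. The ranges overlap only through the control at 0.72 and the sleep-deprived pool at 0.71, and the sleep-deprived values mostly lie higher. On sleep-deprived replicate 2, 30 probe sets read at least 1 above both other pools, and none of them was called. None of the 6 arrays stood apart on spiked-in control RNA, whereas 6 other arrays of the study did, with 4.99 to 5.14 against 5.41 to 5.81, among them 2 of the 3 sleep-deprived C57BL/6J arrays at ZT6. AKR/J control replicate 3 at ZT6 was also among them.

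After 6 h of enforced waking, 1633 probe sets (3.63% of those tested) passed an adjusted p of 0.05, 897 of them higher (1.99%) and 736 lower (1.63%). They stand for 1229 genes with a single symbol. The test was limma on all 71 arrays with Benjamini-Hochberg adjustment over the 45037 probe sets; the 6383 at an unadjusted p under 0.05 show how much the adjustment removes. Most changes were small: the median size was 0.35, 274 probe sets moved by 0.5 or more (180 higher, 94 lower) and 31 by 1 or more (24 higher, 7 lower). Of those called, 886 of the higher and 721 of the lower had 3 sleep-deprived values clear of all 3 control values, a pattern that 11% and 11.4% of all probe sets showed in the respective direction. With the actin difference as a covariate 1453 probe sets were called, 1121 of them among the 1633. Since this is bulk tissue, a lower value can mean less RNA per cell or fewer cells of a type, which cannot be told apart.

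The rise with the smallest adjusted p was that of Homer1, a scaffold of metabotropic glutamate receptors whose short form, Homer1a, is induced by activity and uncouples the scaffold. On probe set 1436387_at the controls read 7.56, 7.60 and 7.75 and the sleep-deprived pools 9.88, 10.13 and 10.06. The groups lie far apart: the difference was 2.39 ± 0.11 (SE, n = 3 and 3; adjusted p = 2.39e-23), a 5.24-fold rise. The other 5 probe sets of Homer1 gave smaller values. On 1425671_at the controls read 4.35, 3.76 and 3.97 and the sleep-deprived pools 5.23, 4.89 and 5.16, a rise of 1.07. The remaining ones gave 0.47, 0.38, 0.24 and 0.22, the last of them not called (adjusted p = 0.275), so the response of this gene depends on which stretch of the transcript is probed.

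**Figure D1:**
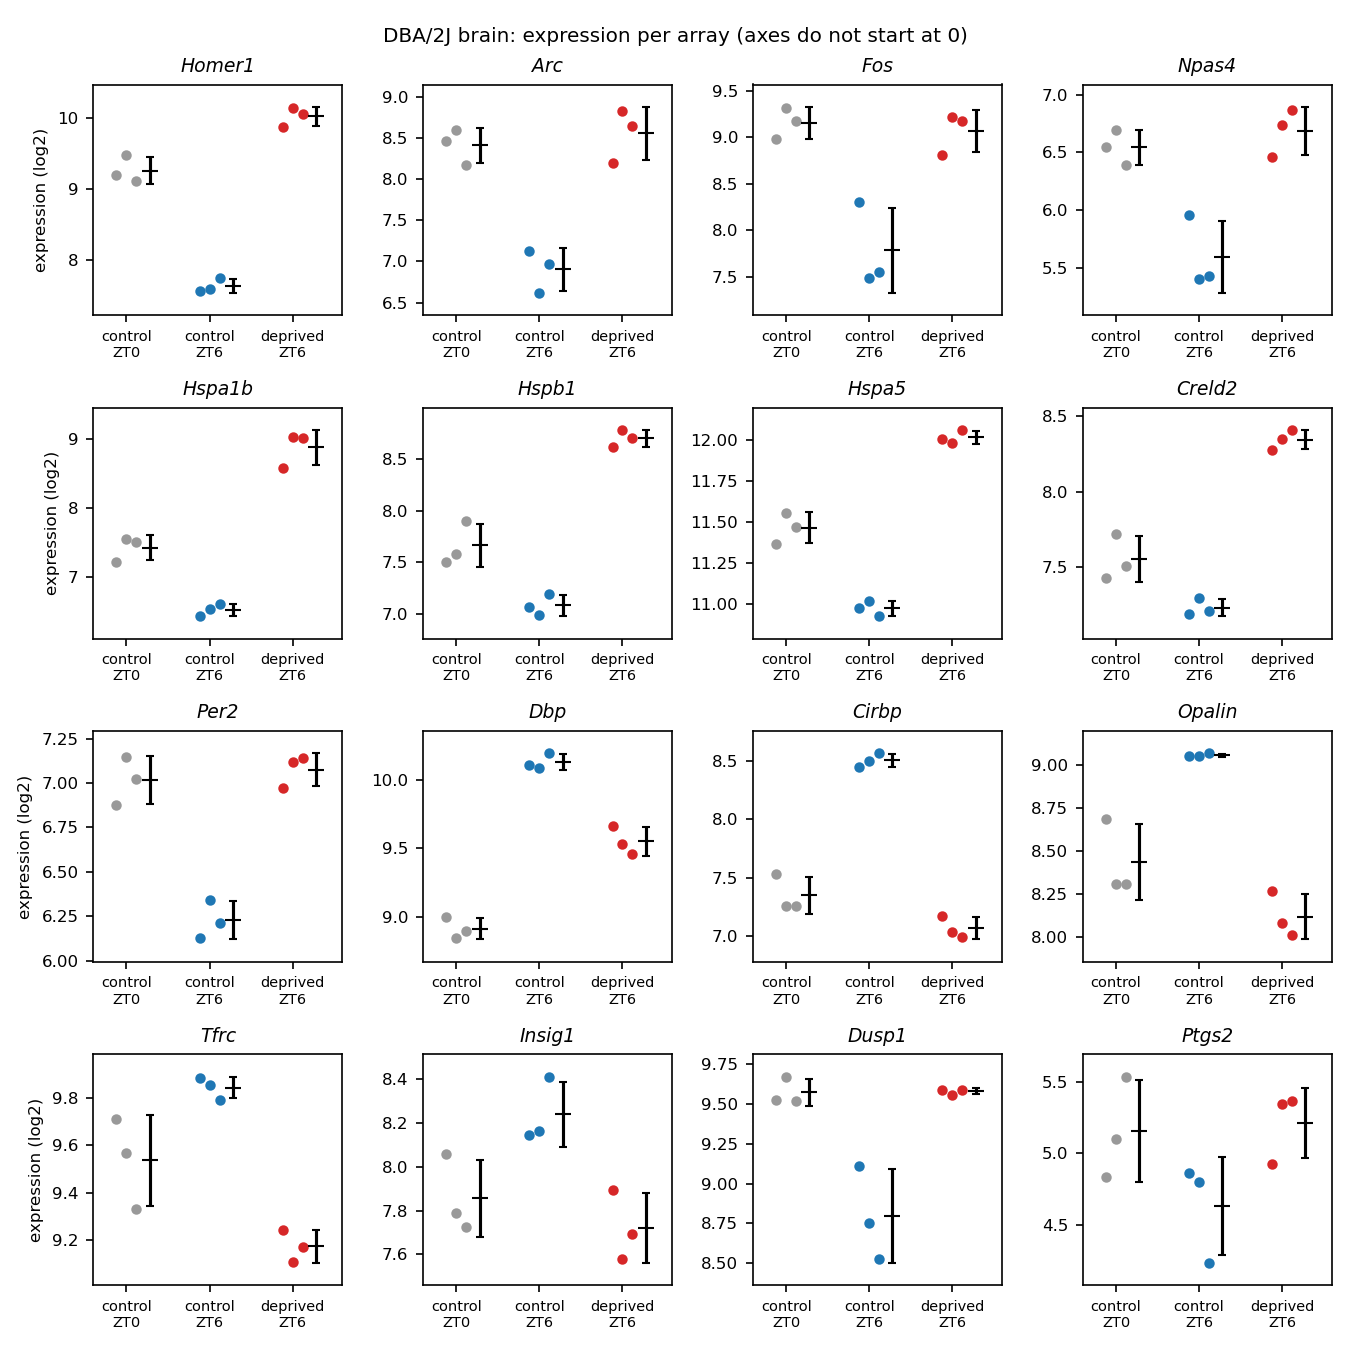
Log2 expression of 16 genes on each DBA/2J array, in controls at ZT0, controls at ZT6 and sleep-deprived mice at ZT6; points are single arrays (pools of 3 mice), the bar to their right the mean and SD, and each panel has its own axis. Homer1 sits at 9.88 to 10.13 after deprivation against 7.56 to 7.75 in the ZT6 controls, while Dbp, Cirbp, Opalin and Tfrc lie below their ZT6 controls.

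Immediate early transcription factors formed the group with the highest median. Of 25 measured, each on its brightest probe set, 15 rose and none fell, with a median difference of 0.46; over all 18193 genes read the same way 2.68% were called higher and 2.09% lower, with a median of 0.00. Fos, a subunit of the AP-1 factor, read 8.31, 7.49 and 7.55 in controls and 8.81, 9.22 and 9.18 after deprivation, a rise of 1.28 ± 0.16 (adjusted p = 1.36e-07). Fosl2, of the same family, went from 6.59, 6.57 and 6.80 to 7.83, 7.89 and 7.91, a rise of 1.22 ± 0.12. Npas4, a factor specific to excited neurons, read 5.96, 5.40 and 5.43 against 6.46, 6.74 and 6.86, a rise of 1.09 ± 0.15. Control replicate 1 was the highest control for Fos, Npas4, Nr4a1 and Dusp1, and deprived replicate 1 was the lowest deprived array for Fos, Npas4, Arc and Nr4a1. The orphan nuclear receptor Nr4a1 rose by 1.02 and the zinc finger factors Egr2 and Egr3 by 1.04 and 0.96; Egr1, Nr4a3, Nfil3, Klf10, Crem, Klf2, Fosb, Ier5 and Egr4 rose by 0.32 to 0.71. On their other probe sets Fosl2 and Egr3 were at -0.07 and -0.02, not called. The other 10 members of the list did not pass the test, among them Jun at 0.02, Junb at 0.29, Nr4a2 at 0.16, Atf3 at -0.14 and Klf4 at 0.46.

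Among 37 activity-regulated synaptic and signalling genes 18 rose and none fell, with a median of 0.24. Arc, which drives removal of AMPA receptors from synapses, read 7.13, 6.62 and 6.97 in controls and 8.20, 8.83 and 8.65 in sleep-deprived pools, a 3.14-fold rise (1.65 ± 0.18, adjusted p = 3.19e-09). The MAP kinase phosphatases Dusp1, Dusp4, Dusp6 and Dusp5 rose by 0.78, 0.77, 0.66 and 0.41. Dusp1 was tight after deprivation, at 9.59, 9.56 and 9.59, and spread in controls, at 9.11, 8.75 and 8.53. Bdnf, a neurotrophin, rose by 0.70 ± 0.10 and Vgf, a secreted neuropeptide precursor, by 0.73 ± 0.11. Cdkn1a rose by 0.78, Inhba by 0.60 and Pcsk1, a prohormone convertase, by 0.44. Members that did not pass include Nptx1 at 0.26, Sgk1 at 0.39, Per1 at 0.41, Plk2 at -0.04 and Btg2 at 0.00.

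The 4 genes that the study is known for, Homer1, Nptx2, Ptgs2 and Jph3, were chosen on its own material and so are no independent evidence. Nptx2, a pentraxin that clusters AMPA receptors, read 5.87, 6.03 and 6.23 in controls and 6.64, 7.07 and 6.55 after deprivation, a rise of 0.71 ± 0.19 (adjusted p = 0.0194); its second probe set gave 0.22 and was not called. With the actin difference as a covariate Nptx2 was 0.43 and no longer called. Ptgs2, the inducible cyclooxygenase, read 4.86, 4.80 and 4.23 against 4.93, 5.34 and 5.37, a rise of 0.58 ± 0.17 at an adjusted p of 0.0452. That call rests on control replicate 3, the lowest of the controls: without it the difference was 0.38, with an adjusted p of 0.36. On its second probe set Ptgs2 averaged 4.63 in controls and 4.72 after deprivation. Jph3, which ties the plasma membrane to the endoplasmic reticulum, was called on 1443724_at (0.45 ± 0.08, adjusted p = 0.00029) and not on its brighter probe set, where it read 9.06, 9.21 and 9.29 against 9.08, 9.65 and 9.43.

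Cytosolic heat shock proteins and their cochaperones included the gene with the highest single value, Hspa1b. Of 35 measured, 19 rose and none fell, with a median of 0.31. Hspa1b, an inducible Hsp70, read 6.43, 6.53 and 6.61 in controls and 8.58, 9.03 and 9.01 in sleep-deprived pools on 1427127_x_at, a 5.10-fold rise (2.35 ± 0.22, adjusted p = 1.44e-11), and its other 2 probe sets rose by 2.43 and 2.13. Hspa1a, a near-identical copy whose signal cannot be fully separated from that of Hspa1b, read 6.64, 6.50 and 6.43 against 7.47, 7.73 and 7.49, a rise of 1.04 ± 0.15. Hspb1, a small heat shock protein that holds unfolded proteins in solution, read 7.07, 6.98 and 7.19 against 8.62, 8.78 and 8.70, a rise of 1.62 ± 0.25, and its relative Cryab rose by 0.67 ± 0.07. Chordc1, an Hsp90 cochaperone, rose by 0.75 ± 0.08, Dnajb1 by 0.55, the Hsp110 gene Hsph1 by 0.54 and Stip1, which hands clients from Hsp70 to Hsp90, by 0.45. The constitutive Hspa8 rose by 0.31 and the mitochondrial pair Hspd1 and Hspe1 by 0.23 and 0.29. Hsp90aa1 at 0.14, Hspa2 at 0.00, Hspb6 at -0.13, Hspb8 at -0.05 and Bag1 at 0.01 did not pass.

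Endoplasmic reticulum chaperones and other genes of the unfolded protein response rose alongside: 17 of 33 measured were higher, none lower, and the median was 0.29. Hspa5, the main Hsp70 of this compartment, known as BiP, read 10.97, 11.02 and 10.92 in controls and 12.01, 11.98 and 12.06 after deprivation, a 2.07-fold rise with the smallest adjusted p of the list (1.05 ± 0.07, 7.1e-16). Creld2, a secreted stress protein, read 7.19, 7.29 and 7.20 against 8.28, 8.35 and 8.41, a rise of 1.12 ± 0.08 (adjusted p = 1.59e-14). Arrays of a group differed by under 0.15 for both genes. Sdf2l1, a partner of Hspa5, rose by 1.07 ± 0.16, the trophic factor Manf by 0.94 ± 0.08, the disulfide isomerases Pdia6, Pdia3 and Pdia4 by 0.76, 0.53 and 0.46, the lectin chaperone Calr by 0.65 ± 0.08 and the transcription factor Xbp1 by 0.72 ± 0.08. Among genes of protein disposal, Sel1l rose by 0.35, Syvn1 by 0.41, Herpud1 and Derl2 by 0.32. The stress sensors did not pass, with Ern1 at 0.10, Eif2ak3 at 0.12 and Atf6 at 0.20. Of the arm that follows Eif2ak3, Atf4 was at 0.13, Trib3 at 0.04, Chac1 at -0.01 and Ppp1r15a at 0.04, none called, while Ddit3 rose by 0.18.

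Some promoters of these genes hold a named element, shown here so that genes that carry it and were called can be set beside carriers that were not. The ER stress response element, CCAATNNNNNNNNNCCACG, is bound by NF-Y and the stress sensor Atf6. It was searched on both strands of the 250 bases before each start in RefSeq's table for GRCm38.p6, where it occurs in 37 of 32851 promoters, 0.113%, belonging to 35 genes. Of those genes 19 were measured, and 8 of the 19 rose and none fell, which is 42.1% called higher against 2.72% of the 14433 measured genes without it. All but Adcy3, an adenylyl cyclase that rose by 0.23, were already in the endoplasmic reticulum list. The matches in the 8 genes that rose are given on the strand that carries the element, in order of the size of the rise, with its fixed letters in capitals; Hsp90b1 has 2.
Creld2: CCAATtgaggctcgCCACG
Hspa5: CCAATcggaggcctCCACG
Pdia6: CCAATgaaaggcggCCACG
Calr: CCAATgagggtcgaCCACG
Dnajc3: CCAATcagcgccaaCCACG
Hsp90b1: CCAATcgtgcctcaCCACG
Hsp90b1: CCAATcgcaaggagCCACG
Syvn1: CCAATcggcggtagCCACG
Adcy3: CCAATtcggcgtttCCACG
Other measured genes with a match were not called. Among them were Derl3, at 0.29 with an adjusted p of 0.0673, and Ero1b at 0.14. Canx, the membrane-bound relative of Calr, was at 0.11 and also not called.
Derl3: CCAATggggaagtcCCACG
Ero1b: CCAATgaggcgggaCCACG
Canx: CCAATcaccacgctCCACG
Creld2 and Alg12, a mannosyltransferase gene transcribed the other way, share the same 19 bases at chr15:88819520-88819538. Creld2 rose by 1.12 and Alg12 gave 0.12 ± 0.08 and was not called. The element lies 108 to 126 bases before the start of Creld2 and 202 to 220 before that of Alg12. Sdf2l1 and Xbp1, which rose by 1.07 and 0.72, hold no match to these letters in the window.

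The whole windows of the genes with the largest rises show where the letters fall, the element again in capitals, for Hspa5 (chr2:34771840-34772089, plus strand) and Creld2 (chr15:88819396-88819645, plus strand, element on the opposite strand).
Hspa5: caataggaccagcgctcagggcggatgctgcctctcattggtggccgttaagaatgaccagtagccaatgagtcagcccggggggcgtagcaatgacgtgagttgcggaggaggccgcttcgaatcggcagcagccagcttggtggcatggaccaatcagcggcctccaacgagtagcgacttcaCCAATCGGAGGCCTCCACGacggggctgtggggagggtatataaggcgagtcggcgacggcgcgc
Creld2: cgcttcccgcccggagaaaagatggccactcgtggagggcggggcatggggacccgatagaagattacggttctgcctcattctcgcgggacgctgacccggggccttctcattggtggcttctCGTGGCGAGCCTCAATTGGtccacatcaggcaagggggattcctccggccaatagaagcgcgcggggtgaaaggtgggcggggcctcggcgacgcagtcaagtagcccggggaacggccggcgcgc
In the heat shock genes the pair of inverted units GAANNTTC or TTCNNGAA, the core of the site of heat shock factor, was searched, again on both strands. It stood in 12.8% of all promoters, in 10 of 25 promoters (40.0%) of list members that rose and in 5 of 19 (26.3%) of those not called. By gene these were 9 of 17 and 4 of 14. Hspb1 (chr5:135887669-135887918, plus strand) has 2 and Hspa1b (chr17:34959239-34959488, minus strand) 1, in capitals.
Hspb1: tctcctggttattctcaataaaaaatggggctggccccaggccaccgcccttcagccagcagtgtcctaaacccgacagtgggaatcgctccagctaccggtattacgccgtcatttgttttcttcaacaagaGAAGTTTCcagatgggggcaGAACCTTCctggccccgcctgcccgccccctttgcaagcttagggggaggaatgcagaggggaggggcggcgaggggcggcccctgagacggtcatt
Hspa1b: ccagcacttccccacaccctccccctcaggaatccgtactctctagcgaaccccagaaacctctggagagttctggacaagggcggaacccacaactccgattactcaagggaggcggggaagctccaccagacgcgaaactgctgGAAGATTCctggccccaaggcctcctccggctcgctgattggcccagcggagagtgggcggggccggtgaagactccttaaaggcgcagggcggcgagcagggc
For the immediate early genes the shorter form TGACG of the cyclic AMP response element is shown, which is also part of the full TGACGTCA. The full form stood in 0 of 15 promoters of members that rose and in 1 of 10 of members not called. TGACG stood in 17.8% of all promoters, in 11 of 15 promoters (73.3%) of members that rose and in 6 of 10 (60.0%) of members not called. A gene can have several promoters here: the 15 belong to 11 genes, 9 with a match, and the 10 to 8 genes, 5 with one. Npas4 (chr19:4989972-4990221, minus strand) has 2 and the first of the 2 listed starts of Homer1 (chr13:93303507-93303756, plus strand) 3, in capitals. Homer1 is not a member of the immediate early list.
Npas4: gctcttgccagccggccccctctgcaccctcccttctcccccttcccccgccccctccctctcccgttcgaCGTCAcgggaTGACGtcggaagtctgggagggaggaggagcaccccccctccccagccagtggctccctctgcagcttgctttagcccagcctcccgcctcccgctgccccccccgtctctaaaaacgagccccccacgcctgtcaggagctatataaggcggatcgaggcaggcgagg
Homer1: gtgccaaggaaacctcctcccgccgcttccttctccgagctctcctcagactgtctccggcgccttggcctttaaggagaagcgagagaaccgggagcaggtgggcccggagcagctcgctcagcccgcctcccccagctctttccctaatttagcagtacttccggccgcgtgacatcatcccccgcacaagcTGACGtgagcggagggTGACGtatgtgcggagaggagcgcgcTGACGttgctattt
Over all measured genes, 3.93% of those with TGACG were called higher against 2.36% of those without it, and 3.08% of those with the heat shock pair against 2.72%. These shares are descriptions and were not tested, and the lists were drawn up knowing which genes respond.

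**Figure D2:**
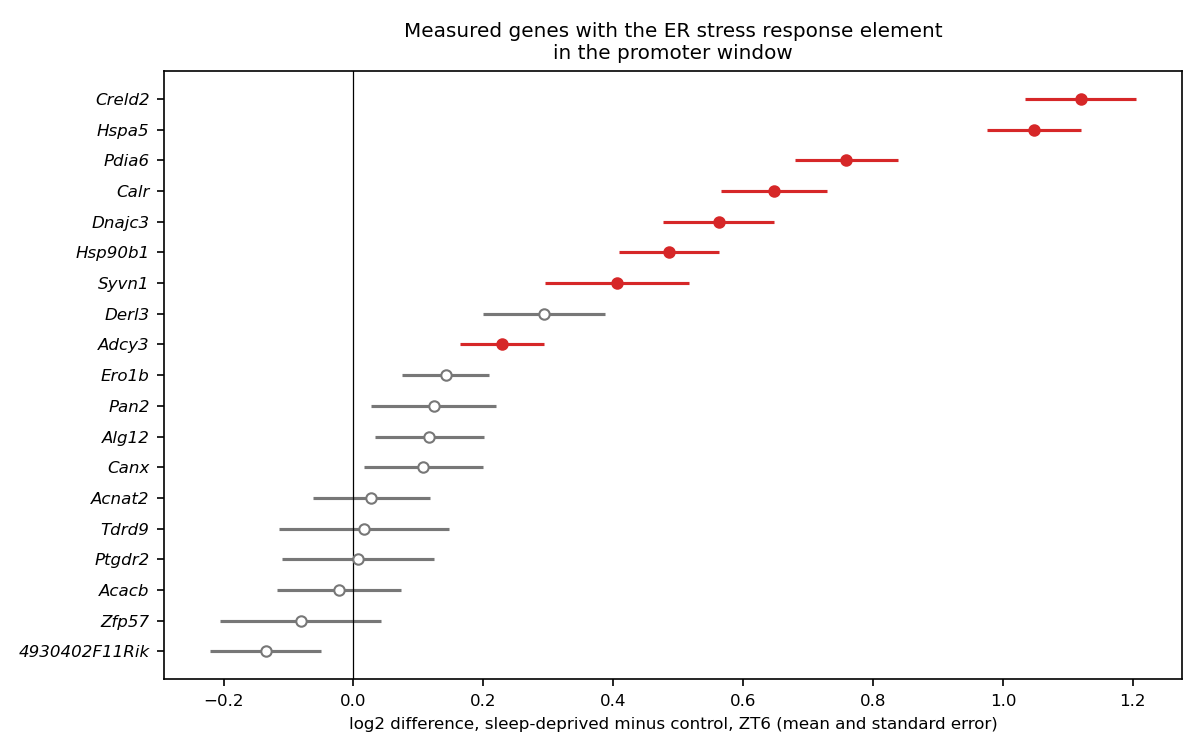
Log2 difference, sleep-deprived minus control at ZT6, with its standard error for the 19 measured genes whose promoter window holds the ER stress response element; filled points were called. Creld2 at 1.12 and Hspa5 at 1.05 lead, 8 of the 19 are filled, and no gene was called lower.

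Genes known to respond to glucocorticoids also rose: 10 of 27 were higher, none lower, with a median of 0.29. Besides Dusp1 and Cdkn1a, which the activity list shares, Zbtb16 rose by 0.51 ± 0.11, Tsc22d3, which encodes GILZ, by 0.49 ± 0.09, Bcl6 by 0.46 ± 0.07 and Tiparp by 0.37 ± 0.07. Tsc22d3 read 8.66, 8.68 and 8.65 in controls and 9.19, 9.07 and 9.20 after deprivation, without overlap. Fkbp5 at 0.34, Sgk1 at 0.39, Per1 at 0.41 and Cebpd at 0.36 missed the threshold. Crh, which encodes the hormone at the head of this axis, rose by 0.55 ± 0.11, from a mean of 7.06 to one of 7.61 without overlap (adjusted p = 0.00122). The RNA is from whole brain, so the region of this rise is not known. Crh was 1 of 3 called among 34 transmitter and neuropeptide genes of arousal and sleep, the others being Nts, neurotensin, at 0.33 and Vip at 0.24. Hcrt, the orexin precursor, at 0.11, Hdc of histamine neurons at 0.03, Gal at 0.10 and Ada, adenosine deaminase, at -0.10 did not pass.

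Core clock genes moved in both directions. Of 17 measured 3 rose and 1 fell, with a median of 0.01. Per2, a repressor of the clock loop, read 6.13, 6.34 and 6.21 in controls and 6.97, 7.12 and 7.14 after deprivation, a rise of 0.85 ± 0.10 (adjusted p = 2.83e-08), and all 3 of its probe sets rose. The activators Npas2 and Arntl rose by 0.42 ± 0.08 and 0.22 ± 0.06. The call for Arntl was lost without any 1 of the 6 arrays, at adjusted p of 0.069 to 0.11. Ciart, a repressor, fell by 0.49 ± 0.10. Clock at 0.03, Cry1 at 0.22, Per3 at 0.00 and Nr1d1 at -0.34 did not pass. Among 6 output genes Nfil3 rose by 0.64 ± 0.09 and Dbp, which opposes it at the same DNA sites, fell by 0.58 ± 0.09, from 10.11, 10.09 and 10.20 to 9.67, 9.53 and 9.46, while Tef at 0.00 and Hlf at 0.03 did not pass.

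The largest fall was that of Cirbp, an RNA-binding protein induced by cooling, whose level follows brain temperature. Controls read 8.45, 8.50 and 8.56 and sleep-deprived pools 7.18, 7.04 and 6.99, a drop of 1.43 on the log2 scale (SE 0.12, adjusted p = 2.27e-13), or 2.70-fold. Rbmx, the other gene measured of the small list that holds Cirbp, fell by 0.32 ± 0.09. Without any single array other than sleep-deprived replicate 1 the call of Rbmx was lost. Rbm3, also in that list, was not measured. Opalin, a membrane protein of mature oligodendrocytes, read 9.05, 9.05 and 9.07 in controls and 8.26, 8.08 and 8.01 after deprivation and fell by 0.94 ± 0.10 (adjusted p = 6.67e-10). The other 8 oligodendrocyte markers measured did not pass, with Mbp at 0.02, Mobp at 0.08, Mog at -0.13 and Mag at -0.16. Of 7 markers of their precursors, Gpr17 and Olig2 rose by 0.54 and 0.31. The mean level of all 7 was 8.23 to 8.26 in sleep-deprived pools and 7.99 to 8.09 in controls, and the median difference of the 9 oligodendrocyte markers was 0.02; the part of the precursor markers in the other results was not tested. Tfrc, the transferrin receptor, which brings iron across brain vessels, read 9.88, 9.86 and 9.79 against 9.24, 9.10 and 9.17 and fell by 0.67 ± 0.08, on all 3 of its probe sets. Slc22a8, an organic anion transporter, fell by 0.67 ± 0.12 on 1 probe set and was at -0.13 on the brighter one, and Slco1a4, a transporter of brain vessels, fell by 0.45, the only call among 9 endothelial markers.

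Several of the other large falls stood on 1 probe set of a gene. Rprd2 on 1434817_s_at read 5.48, 5.62 and 5.11 against 4.21, 4.02 and 4.21 and fell by 1.26 ± 0.13, while its other 7 probe sets lay between -0.11 and 0.11. Btg1 fell by 0.86 on 1442018_at, with 0.07 and -0.02 on the other 2, and Prpf38a by 0.73 on 1443282_at, with -0.16 and -0.08. Sin3b, part of a repressor complex, fell by 0.71, 0.57 and 0.38 on 3 probe sets and was at 0.15 and 0.23 on the other 2. Hnrnpdl, an RNA-binding protein, fell on 5 of its 7, by 0.44 to 0.64. In all, 13 genes had one probe set called higher and another lower, Kalrn, Syncrip and Nfya among them. Psapl1 meets the rule for large falls (-1.21) only because control replicate 3 read 7.39 beside 4.24 and 4.20; without that array it was -0.15 and not called (adjusted p = 0.54). Rab2a, at -0.70 on 1419946_s_at, lost its call (adjusted p 0.067 to 0.23) without any 1 of the arrays other than control replicate 3. The uncharacterised transcripts 4930570G19Rik and 0610040B10Rik fell by 1.10 and 0.84, Krt12 by 0.87, Lactb2 by 0.68 and the Y-linked initiation factor gene Eif2s3y by 0.66; Gm19439 and the zinc finger gene Zmym1 rose by 1.21 and 1.10. Probe sets with no gene symbol or with several are not described by gene. Among those called whose arrays did not overlap, the largest changes were rises of 1.46 and 1.44 and a fall of 1.21.

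Genes of cholesterol and fatty acid synthesis were lower in part: of 29 measured 6 fell and 1 rose, with a median of -0.14 and 22 of the 29 below 0. Insig1, which restrains the sterol sensor and is itself a target of it, fell by 0.52 ± 0.10, from 8.15, 8.16 and 8.41 to 7.89, 7.58 and 7.69. Lss, lanosterol synthase, fell by 0.43 ± 0.11, Msmo1 by 0.28 ± 0.07, Fdft1 by 0.25 ± 0.07, and Hmgcs1 and Nsdhl by 0.22; Elovl6, a fatty acid elongase, rose by 0.26. The count of falls is fragile: without sleep-deprived replicate 2 it was 1, without sleep-deprived replicate 3 it was 2, without control replicate 1 it was 3 and without control replicate 3 it was 4. Control replicate 3 had the highest control mean over the 29 genes, 9.12 against 9.00 and 8.99, and the highest control value of Insig1; its part in the falls was not tested. Sqle at -0.20, Dhcr7 at -0.21 and Srebf2 at 0.02 did not pass.

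Splicing factors moved both ways, 5 higher and 3 lower of 33 (median 0.05). Tra2a rose by 0.53 ± 0.08, Prpf4b by 0.30, Hnrnph1 by 0.27 and the splicing kinase Clk1 by 0.24. Srsf6 rose by 0.45 ± 0.07 on 1448454_at, while its other 3 probe sets lay at -0.20, -0.16 and -0.28 and were not called. Srsf5 fell by 0.38 ± 0.06, Luc7l2 by 0.45 ± 0.10 and Hnrnpd by 0.20. Without sleep-deprived replicate 3 only 2 rises were called, and without control replicate 1 or control replicate 2 there were 3.

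Energy and transmission genes gave few calls. Their shares stood near or under the background of 2.68% higher and 2.09% lower, except in the glucose and glycogen list. There the share called higher was above the background, on 2 genes. Of 29 genes of glucose transport, glycolysis, lactate and glycogen 2 rose: Pfkfb3, an activator of glycolysis, by 0.56 ± 0.13 and Ppp1r3c, which targets a phosphatase to glycogen, by 0.31 ± 0.06. Pfkfb3 lost its call without control replicate 1 (adjusted p = 0.091) and with the actin covariate. None of 32 respiratory chain genes and none of 28 translation factors was called on the brightest probe set, with medians of -0.02 each. On other probe sets Eif5 fell by 0.30 and Eif2s3y by 0.66, while their brightest gave -0.14 and -0.20. Of 27 glutamate receptor and scaffold genes Homer2 rose by 0.31 ± 0.08, a call lost without control replicate 1, control replicate 2, sleep-deprived replicate 2 or sleep-deprived replicate 3, and none of 15 GABA genes was called. Of 36 potassium channel genes Kcnn2, a small-conductance calcium-activated channel, rose by 0.33 ± 0.08 and Kcnq5, a subunit of the M current, fell by 0.28 ± 0.07. Kcnq5 lost its call without control replicate 3 (adjusted p = 0.056) or sleep-deprived replicate 1 (0.059).

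Markers of cell types and regions were mostly level. Among 10 neuronal markers Nefm was called (0.18), among 10 astrocyte markers Gjb6 (0.34), also a glucocorticoid target, and none of 10 microglial, 7 choroid plexus, 6 blood, 9 meningeal, 5 striatal or 6 hypothalamic markers. Of 9 cerebellar markers Cbln3 and Cbln1 fell by 0.41 and 0.26, and the mean of the 9 was 10.01 to 10.04 in sleep-deprived pools against 10.10 to 10.17 in controls; its part in other results was not tested. Of the 7 pituitary genes none was called, with a median of -0.45, although sleep-deprived replicate 3 read 8.92 for Gh against 12.00 to 12.38 on the other arrays. With the pituitary level as a covariate 1565 probe sets were called, 1520 of them among the 1633.

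**Figure D3:**
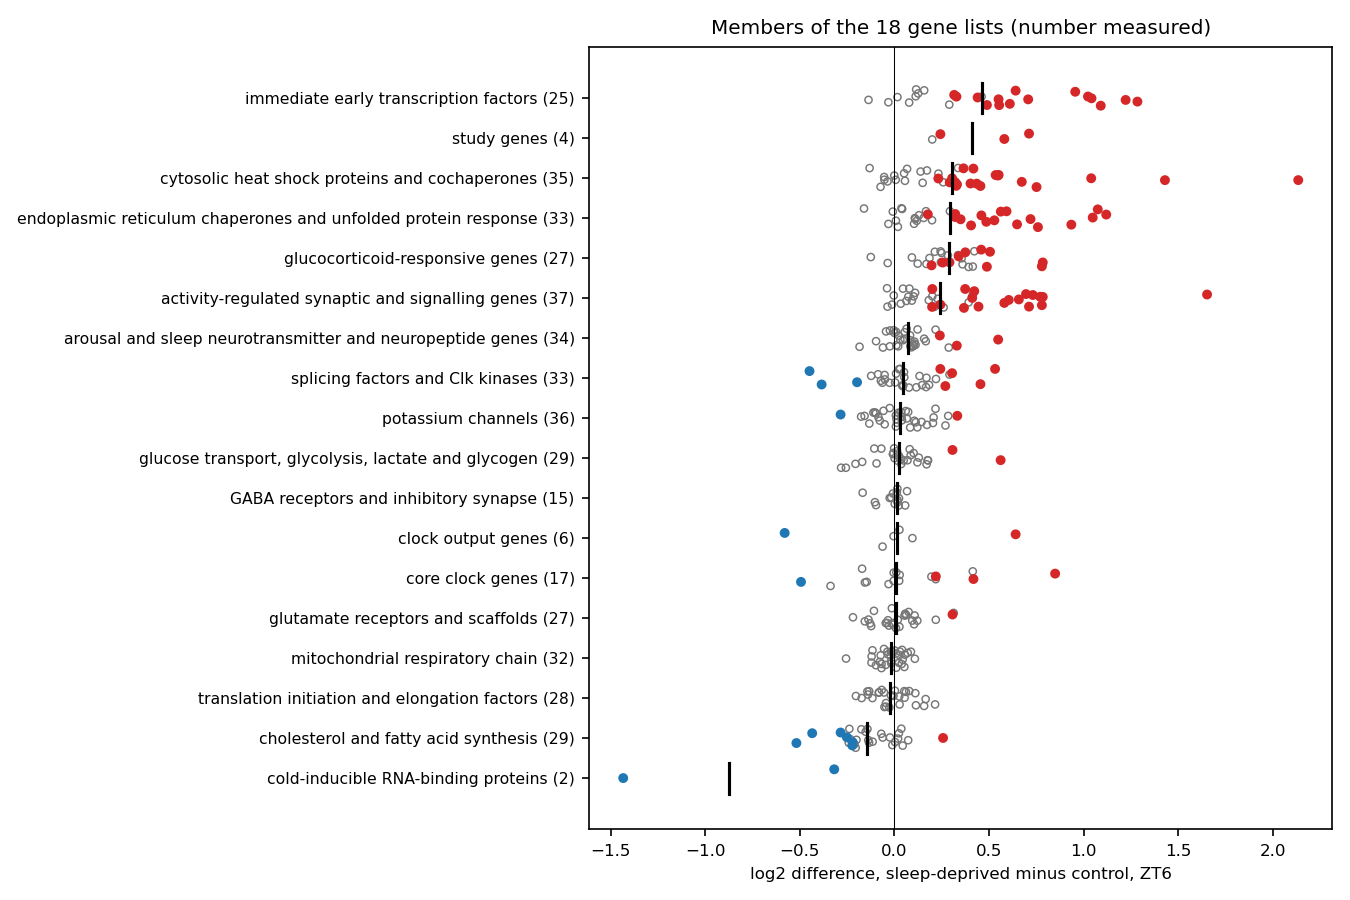
Log2 difference, sleep-deprived minus control at ZT6, for each measured member of the 18 gene lists on its brightest probe set; filled red points were called higher, filled blue lower, open grey not called, and the black bar is the list's median. The lists with medians from 0.24 to 0.46 are the immediate early, activity, heat shock, endoplasmic reticulum and glucocorticoid lists and the study's 4 genes; respiratory chain and translation genes cluster about 0.

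The level at light onset gives a scale for these changes, since ZT0 controls were killed after the dark, active period. The genes below had been chosen for their distance from the same ZT6 controls, so only their levels are given. Arc read 8.46, 8.60 and 8.18 at ZT0, which overlaps the sleep-deprived pools at 8.20 to 8.83. Homer1 on 1436387_at read 9.19, 9.47 and 9.11 at ZT0, between its ZT6 controls and the sleep-deprived pools. Hspb1 at ZT0 read 7.51, 7.58 and 7.90, closer to its ZT6 controls than to the sleep-deprived pools at 8.62 to 8.78. Cirbp read 7.53, 7.26 and 7.26 at ZT0, above the sleep-deprived pools and below the ZT6 controls. Dbp kept an intermediate place, at 8.84 to 8.99 in ZT0 controls, 9.46 to 9.67 after deprivation and 10.09 to 10.20 in ZT6 controls. These are positions of arrays and carry no test.

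The same deprivation in the other strains allowed a test of whether the DBA/2J response differs. Against AKR/J, with no array in common, 558 probe sets were called with the same sign in both, 34.2% of the 1633 and 47.9% of the 1164 called in AKR/J (2.58%; 1.71% higher, 0.873% lower), and none with opposite signs. The difference of the 2 responses was called for 1 probe set (0.00222%; 2566 at an unadjusted p under 0.05 in limma). That transcript, 4930578G10Rik, did not move in a called way in DBA/2J, at 3.90, 3.89 and 4.03 against 4.16, 3.88 and 3.99, and rose by 1.13 in AKR/J, where controls read 5.25, 5.16 and 5.13 and sleep-deprived pools 6.50, 6.06 and 6.39. The difference of -1.07 ± 0.18 had an adjusted p of 0.0108, and 0.057 to 0.18 on leaving out AKR/J control replicate 2 or 3, AKR/J sleep-deprived replicate 1 or 3, or DBA/2J sleep-deprived replicate 2 or 3. AKR/J control replicate 3 is among the 6 arrays that stood apart on spiked-in RNA. The heat shock genes Hspa1b and Cryab had higher values in DBA/2J without passing: Hspa1b rose by 2.35 against 1.20 in AKR/J, a difference of 1.15 ± 0.31 with an adjusted p of 0.632, and Cryab by 0.67 against 0.26 (0.41 ± 0.11, adjusted p = 0.599). Ptgs2 ran the other way, at 0.58 against 1.45 (-0.87 ± 0.25, adjusted p = 0.862). Homer1 at 2.39 and 2.25 and Arc at 1.65 and 1.68 gave differences of 0.14 ± 0.16 and -0.03 ± 0.26.

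Against C57BL/6J, 588 probe sets were called with the same sign, 36.0% of the 1633 and 17.5% of the 3364 called there (7.47%; 2.74% higher, 4.73% lower), and 2 with opposite signs. The response differed for 36 probe sets (0.0799%, with 5264 at an unadjusted p under 0.05). Of these, 27 had a higher difference in DBA/2J (0.06%) and 9 a lower one (0.02%). Opposite signs in the strains were seen for 33 of the 36, a pattern that choosing them by this difference favours. Of the 1633 called in DBA/2J, 88.1% had the same sign in C57BL/6J. Among the 36, 28 were called in C57BL/6J and 12 in DBA/2J. Kif1a, a motor of synaptic vesicle precursors, was at 0.25 in DBA/2J, not called, and fell by 0.75 in C57BL/6J, a difference of 1.00 ± 0.19 (adjusted p = 0.0266). Hip1, an endocytic adaptor, rose by 0.62 in DBA/2J and was at -0.15 in C57BL/6J (0.76 ± 0.14, adjusted p = 0.0223), and Erc1, an active zone protein, by 0.40 against -0.06 (0.47 ± 0.09, adjusted p = 0.0287). In DBA/2J the other probe sets of Erc1 were at 0.12, -0.16 and 0.02, not called. Creld2 was also among the 36, at 1.12 against 0.56 (0.56 ± 0.12, adjusted p = 0.0402), and Homer1, at 2.39 against 1.70, was just outside (0.69 ± 0.16, adjusted p = 0.0514). C57BL/6J sleep-deprived replicates 1 and 3 are among the 6 arrays that stood apart on spiked-in RNA. Leaving those 6 out left 1 array in that group, which is then assumed to vary like the other groups, and no difference was called; those of Kif1a, Hip1 and Erc1 were 0.66, 0.72 and 0.47.

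**Figure D4:**
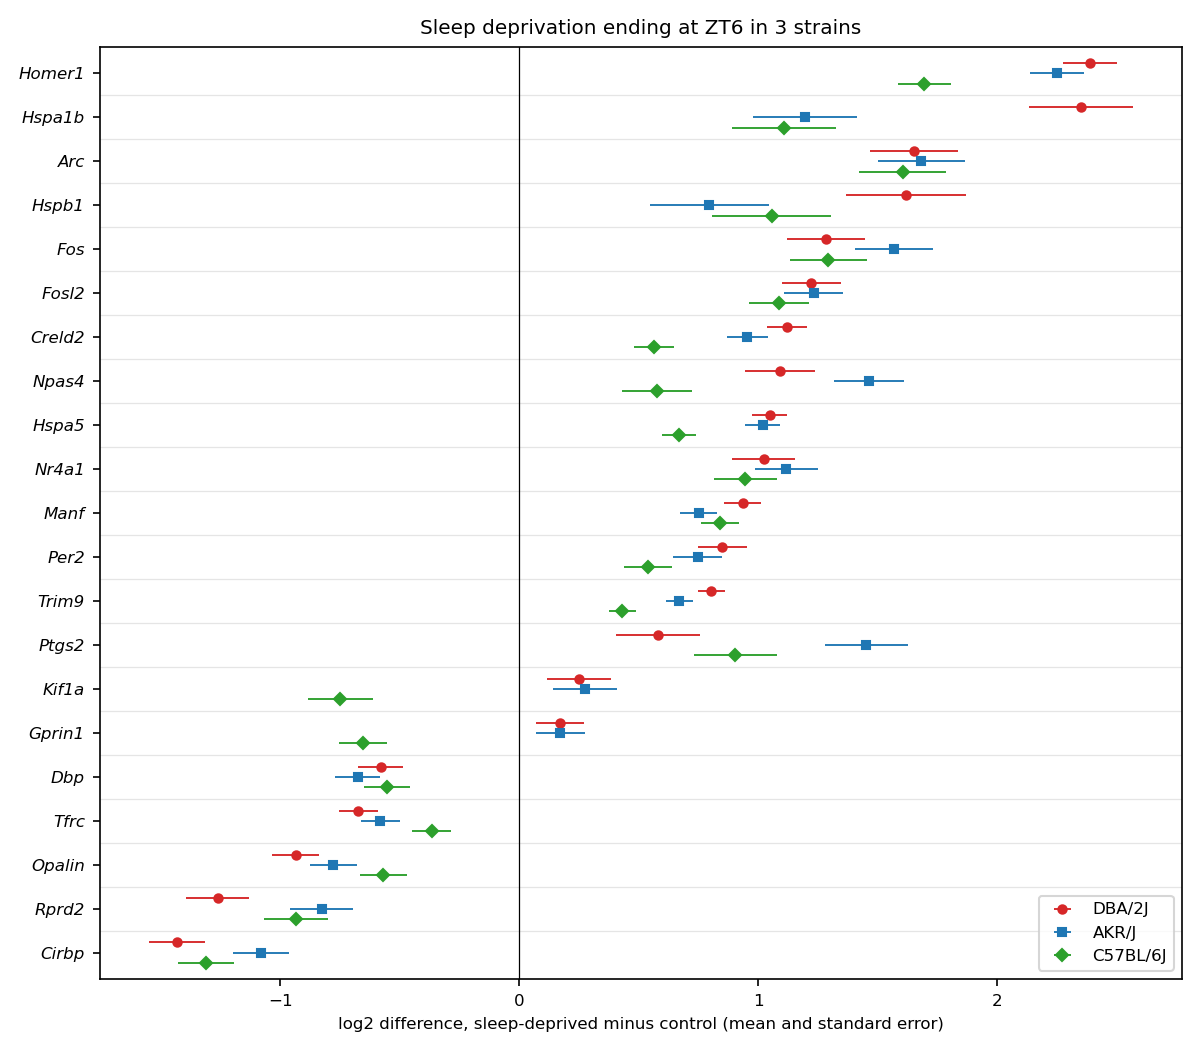
Log2 difference, sleep-deprived minus control at ZT6, with its standard error, for 21 genes in DBA/2J, AKR/J and C57BL/6J (3 arrays a group). Arc lies at 1.65, 1.68 and 1.60 in the 3 strains, Hspa1b is higher in DBA/2J (2.35) than in AKR/J (1.20) and C57BL/6J (1.11) without a called difference, and Kif1a and Gprin1 are below 0 in C57BL/6J and above 0 in the other strains.

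Within DBA/2J the response ending at ZT6 was set against the mean of those ending at ZT0, ZT12 and ZT18. At ZT0 50 probe sets were called (0.111%; 0.0933% higher, 0.0178% lower), at ZT12 1324 (2.94%; 1.6% higher, 1.34% lower) and at ZT18 2 (0.00444%; 0.00222% in each direction), against 1633 at ZT6. With ZT12, the other deprivation inside the light period, 719 calls were shared with the same sign and none opposite, 44.0% of the 1633 and 54.3% of the 1324. The test of ZT6 against the mean of the others called 44 probe sets (0.0977%, with 3599 at an unadjusted p under 0.05), 31 higher (0.0688%) and 13 lower (0.0289%). All 44 had a larger change at ZT6 than the mean of the other times, a pattern that choosing them by this difference favours. Homer1 rose by 0.97 at ZT0, 2.66 at ZT12 and 0.51 at ZT18, the last not called, so that its ZT6 rise of 2.39 exceeded the mean of the others by 1.01 ± 0.13 (adjusted p = 1.03e-05), although it was no larger than at ZT12. Trim9, a ubiquitin ligase of synapses, rose by 0.80 at ZT6 and 0.73 at ZT12 and gave 0.16 and 0.18, not called, at ZT0 and ZT18. Creld2 rose by 1.12 at ZT6 against 0.42, 0.80 and 0.28 (not called) at ZT0, ZT12 and ZT18, and Hspa5 by 1.05 against 0.41, 0.90 and 0.25 (not called). Cirbp fell by 1.43 at ZT6 and 0.89 at ZT12 and was at -0.47 and -0.22 at ZT0 and ZT18, not called. Hspb1 had its only call at ZT6, at 1.62 against 0.63, 0.52 and 0.45, but the difference from the others, 1.09 ± 0.29, had an adjusted p of 0.139. Opalin fell by 1.18 at ZT12, more than at ZT6. AU022252 rose at ZT6 by 0.49 and was at -0.17, 0.18 and 0.02 at ZT0, ZT12 and ZT18 (0.48 ± 0.09, adjusted p = 0.00968).

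**Figure D5:**
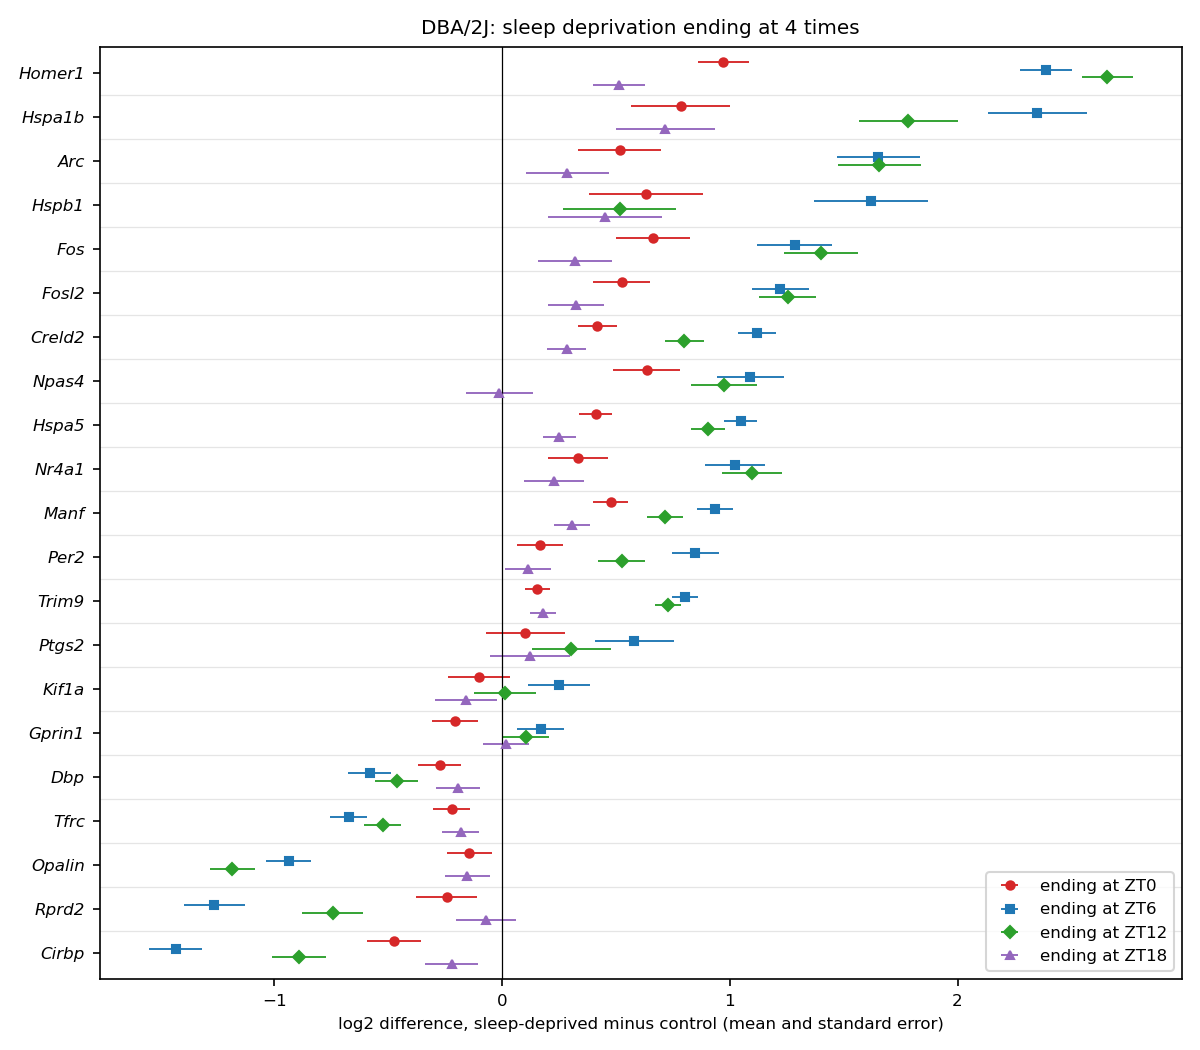
Log2 difference, sleep-deprived minus control, with its standard error, for the same 21 genes in DBA/2J with deprivation ending at ZT0, ZT6, ZT12 or ZT18 (3 arrays a group). The values for ZT6 and ZT12 lie farthest from 0 for most genes, as for Homer1 (2.39 and 2.66 against 0.97 and 0.51), and Hspb1 lies at 1.62 for ZT6 against 0.63, 0.52 and 0.45, a difference that was not called.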

How the data were processed

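Affymetrix arrays were hybridised with RNA from 71 pools. The deposited values are log2 intensities from RMA, per the submitters' processing notes; no source used here gives its settings or version. They were used unchanged, without 64 array control rows. limma 3.58.1 in R 4.3.3 fitted the means of 24 groups on all 71 arrays (47 residual df), and contrasts were adjusted by Benjamini-Hochberg over 45037 probe sets and called at an adjusted p under 0.05. Nothing says which pools shared a day, so p-values measure the spread between pools, which may be technical in part; 3 arrays a group limit the precision. Symbols came from the platform annotation, updated by Entrez ID through RefSeq GRCm38.p6 for 34741 probe sets; 34945 have 1 symbol, 932 several and 9160 none. Of 575 listed genes in 31 lists, 534 were measured, each on its brightest probe set. Named were the 15 largest rises and 15 largest falls among probe sets with 1 symbol that were called and did not overlap, 1 probe set a gene (that with the smallest p), every probe set of 4 study genes, up to 6 list members with the smallest p, and 10 genes per response difference (5 where under 3 were called); other list members are named as examples, after their values were seen. Members and lists were chosen with earlier results of these data known. The fit was tested on simulated data. Alternatives changed the arrays in the fit, normalization, filter, variance model, covariates, array weights, replicate block and gene summary; leaving out the 6 arrays low on spike-ins and the actin covariate were added after seeing the data. Shared replicate numbers did not pair the samples: deviations of same-numbered control and sleep-deprived arrays correlated at 0.0135, -0.0109 and -0.0125.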

Additional observations from a re-analysis of the deposited data

Results flagged for a closer look

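The values here are differences between responses on the log2 scale that passed limma's test of the difference with Benjamini-Hochberg adjustment; no explanation of them was tested. The response to deprivation at ZT6 in DBA/2J minus that in AKR/J was -1.07 for 4930578G10Rik. The DBA/2J response minus that in C57BL/6J was 0.823 for Gprin1, 0.639 for Hcfc1, 0.764 for Hip1, 0.999 for Kif1a, 0.635 for Atg9a, 0.853 for Rnf157, 0.468 for Erc1, 0.463 for Pde3b, -0.707 for Tubb2a and 0.771 for Lpin2. Without the 6 arrays that stood apart on spiked-in RNA, which leaves 1 sleep-deprived C57BL/6J array at ZT6, none of these C57BL/6J differences was called; Kif1a was then 0.656, Gprin1 0.581, Hip1 0.719 and Tubb2a -0.541. The DBA/2J response at ZT6 minus the mean of those at ZT0, ZT12 and ZT18 was 1.01 for Homer1, 0.45 for Trim9, -0.905 for Cirbp, 0.619 for Creld2, 0.526 for Hspa5, -0.91 for Rprd2, -0.577 for Sin3b, 0.479 for AU022252, 0.476 for Zfp319 and -0.368 for Hnrnpdl. For sleep deprivation at ZT6, Rprd2, AU022252, Zfp319, Trim9 and Erc1 were each called on 1 probe set while others of the gene were not.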

How the results depend on the processing

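No result changed direction under any alternative run, and 117 of 172 named values kept their side of the threshold throughout; of 3112 alternative values 210 lost a call and 40 gained one. The 1633 calls became 794 (459 higher, 335 lower) with only the 6 compared arrays in the fit, 3155 (1688 and 1467) with array weights and 949 to 1364 on leaving out 1 array, the fewest without control replicate 1; the higher calls then ran from 518 to 759 and the lower from 388 to 605. With the 18 ZT6 arrays 490 were lower. The share of higher calls was 54.9%, and 51.8% after quantile normalization. The replicate block, with no pairing known, gave 1536 calls (846 higher, 690 lower), 1372 of them among the 1633. The difference from AKR/J, 1 call, became 0 with the 18 ZT6 arrays, 0 above the median level, 0 without the 6 arrays low on poly-A spike-ins, 2 with array weights, 2 with the replicate block and 0 to 3 without 1 array. The difference from C57BL/6J, 36 calls, became 2 with the 18 ZT6 arrays, 72 by quantile, 354 above the median level, 157 with trend and robust moderation, 2119 with array weights, 210 with the replicate block, 105 with the pituitary covariate, 188 with the actin covariate, 0 without the 6 arrays, which leaves 1 array in a group, and 0 to 597 without 1 array, so its size is not settled. ZT6 against the other times, 44 calls, became 16 with the 24 DBA/2J arrays, 88 above the median level, 433 with array weights, 20 with the replicate block, 94 without the 6 arrays, 27 with the actin covariate and 16 to 66 without 1 array. Averaging each gene over its probe sets, in place of the brightest, gave 14 rises for the immediate early list, 20 for heat shock, 16 for the endoplasmic reticulum, 4 for glucose and glycogen, and 8 falls for cholesterol and 4 for translation factors. The causes were not tested. Leaving out arrays apart on hybridization spike-ins was not run, since 0 arrays stood apart.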
